A study of Homo sapiens with 14 samples.

Results

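Nascent transcription of 10 genes of the integrated stress response was followed in A549 cells, a human lung adenocarcinoma line. The genes were ATF4, DDIT3, DDIT4, ASNS, TRIB3, CHAC1, SESN2, PPP1R15A, XBP1 and HSPA5, taken by gene name from a count table of 58780 genes, and each name matched 1 gene. All 10 were among the 21910 genes that passed the filter on low counts and were tested. The measurement was precision run-on sequencing (PRO-seq), which reads RNA at the positions of engaged RNA polymerases. GSK591 is an inhibitor of PRMT5, which places symmetric dimethyl marks on arginine. MS023 is an inhibitor of the type I enzymes, which place the asymmetric form. Dexamethasone (Dex) is a synthetic ligand of the glucocorticoid receptor. The 14 libraries form 7 groups of 2. They are untreated cells, GSK591 for 15 min, MS023 for 15 min, GSK591 with Dex for 15 min, MS023 with Dex for 15 min, GSK591 for 3 h and MS023 for 3 h. Inhibitors were used at 1 µM and Dex at 100 nM. All 7 groups carry the label of 0.01% DMSO, and untreated cells carry the label of 15 min. Untreated cells at 3 h and Dex without an inhibitor are not analysed here, so the effect of an inhibitor at 3 h and the effect of time in culture cannot be told apart. The labels do not say whether the replicates were separate cultures, so p-values measure only the spread between these samples, which may be technical.

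In the integrated stress response, kinases that sense unfolded protein, amino acid shortage, heme shortage or double-stranded RNA phosphorylate the initiation factor eIF2. General translation then slows, while the ATF4 messenger RNA is translated more, so much of the control of ATF4 lies after transcription and is outside a PRO-seq measurement. ATF4 protein switches on genes for amino acid supply, redox balance, growth arrest and cell death, and PPP1R15A closes the loop by bringing a phosphatase to eIF2. XBP1 and HSPA5 belong to the neighbouring unfolded protein response of the endoplasmic reticulum (ER), which shares the kinase PERK with it.

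The promoters of the 10 genes were read for the DNA elements that stress factors are known to bind, and the stretches that hold a match are shown because these factors define the pathway. The sequences are from RefSeq (GRCh38.p14), in windows of 300 bases (250 before and 50 after a start), with 16 windows for the 10 genes. The motifs were searched on both strands. They were TGATGNAA, the core of the element bound by pairs of ATF4 and C/EBP factors, TGACGTCA, the cyclic AMP response element bound by CREB and ATF factors, the ER stress response element (CCAAT and CCACG with 9 free bases between them), TGACGTG, a core of the unfolded protein response element, and a relaxed glucocorticoid response element (GNACA and TGTNC with 3 free bases between them). TGATGNAA was in 3.62% of all 35116 windows, TGACGTCA in 1.85%, the ER stress element in 0.0769%, TGACGTG in 1.97% and the glucocorticoid element in 0.39%. ASNS and CHAC1 held TGATGNAA, PPP1R15A held TGACGTCA, and XBP1 and HSPA5 held the ER stress element. The other 5 genes had no match to these letters in their windows, and no gene of the 10 had a match to TGACGTG or to the glucocorticoid element. Capitals mark the match, which in CHAC1 is on the opposite strand to the one printed. Each sequence runs 5′ to 3′ along the strand of its gene, at chr7:97872458-97872487 (minus) for ASNS, chr15:40953251-40953280 (plus) for CHAC1, chr19:48872252-48872391 (plus) for PPP1R15A, chr22:28800598-28800737 (minus) for XBP1 and chr9:125241344-125241483 (minus) for HSPA5.
ASNS: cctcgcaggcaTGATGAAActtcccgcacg
CHAC1: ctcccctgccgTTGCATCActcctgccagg
PPP1R15A: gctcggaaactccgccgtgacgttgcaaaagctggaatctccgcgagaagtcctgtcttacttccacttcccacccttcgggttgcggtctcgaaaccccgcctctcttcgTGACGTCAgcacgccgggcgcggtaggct
XBP1: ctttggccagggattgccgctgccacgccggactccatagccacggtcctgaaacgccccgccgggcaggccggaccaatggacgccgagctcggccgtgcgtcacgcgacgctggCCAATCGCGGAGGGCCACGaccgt
HSPA5: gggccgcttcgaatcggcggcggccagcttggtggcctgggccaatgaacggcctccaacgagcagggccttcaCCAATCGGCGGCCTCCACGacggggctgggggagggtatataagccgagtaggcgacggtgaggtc
A match describes the letters of the window and does not show that a factor was bound there.

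The libraries held 5768312 to 9606938 counts, of which 39.8% to 58% were mitochondrial. The share was 54% and 53.8% in untreated cells and 44.5% and 39.8% after 15 min of MS023, the group with the lowest mean, and 1 of the GSK591 3 h libraries held 43.5%. Values below are counts per 1000000 (CPM) on library sizes scaled by TMM, a scaling that sets the bulk of genes equal, so every change is relative to that bulk. The 2 libraries of GSK591 with Dex held mitochondrial shares of 48.2% and 58%. Their correlation of log2 CPM, 0.965, was the lowest of the 7 groups. Of 5 epithelial markers, KRT8 stood at 258 to 352 CPM, KRT18 at 119 to 178 CPM and KRT19 at 13.2 to 24.5 CPM, while EPCAM (1.29 to 4.07 CPM) and CDH1 (1.37 to 3.45 CPM) were low. The blood marker CD3E had no count in any library and PTPRC had at most 1, and CD68 stood at 0.811 to 3.36 CPM. The fibroblast marker COL1A1 stood at 4.81 to 7.85 CPM, and COL1A2 and DCN had at most 2 and 1 counts. NKX2-1, a factor of alveolar cells, had 0 to 3 counts. Of the alveolar surfactant genes, SFTPB stood at 12.2 to 17.2 CPM, while SFTPC (1.59 to 4.28 CPM) was low and SFTPA1 had at most 2 counts. The endothelial markers PECAM1, CDH5 and VWF had at most 5, 10 and 2 counts.

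The 10 genes together took 0.124% to 0.151% of the nuclear counts of a library. In untreated cells, in CPM per kilobase of merged exon and as mean ± SD over 2 libraries, DDIT4 was the most transcribed at 96.7 ± 7.9. ATF4 followed at 59.8 ± 3.2, then PPP1R15A at 27.8 ± 0.71, HSPA5 at 25 ± 0.73, TRIB3 at 14.5 ± 0.028 and XBP1 at 9.35 ± 1.2. Next were CHAC1 at 7.12 ± 0.32, DDIT3 at 5.76 ± 1.7 and SESN2 at 5.31 ± 0.66. DDIT3 did not stand apart from CHAC1 or from SESN2 beyond its spread, whereas CHAC1 and SESN2 differed by more than their SDs. ASNS was lowest at 1.49 ± 0.0018. Whether the counts cover exons or whole genes is not given in the sources used here. Per kilobase of gene span, the level of TRIB3 was 1.43 CPM and that of ASNS 0.326 CPM, with DDIT4 still first at 94 CPM and ATF4 next at 50.3 CPM.

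The 10 genes are spread over 9 chromosomes (coordinates on GRCh38 from GENCODE 29, 1-based). ATF4 (ENSG00000128272.14) lies at 22:39519695-39522685 and XBP1 at 22:28794555-28800597 on the other strand. SESN2 lies at 1:28259527-28282491, PPP1R15A at 19:48872392-48876057, DDIT4 at 10:72273920-72276036 and DDIT3 at 12:57516588-57521737. ASNS lies at 7:97852118-97872542, TRIB3 at 20:362835-397559, CHAC1 at 15:40952962-40956519 and HSPA5 at 9:125234853-125241330. The printed ASNS and CHAC1 matches lie inside annotated exons of those genes, and the other 3 printed stretches lie before the annotated exons. DDIT3 shares 27.16% of its exon bases with MARS on the opposite strand, DDIT4 shares 41.16% with DDIT4-AS1 on the opposite strand, and ASNS shares 44.56% with AC079781.5 on its own strand. DDIT3 also shares 8.03% with AC022506.1 on its own strand. The strand setting of the counting is not given in the sources used here, and no strand setting would separate genes that overlap on the same strand. The values of these 3 genes are therefore uncertain. The processed pseudogenes ATF4P3, ATF4P4 and XBP1P1 had 19 to 49, 22 to 45 and 10 to 37 counts, small beside the 897 to 1431 counts of ATF4 and the 172 to 307 counts of XBP1.

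**Figure D1:**
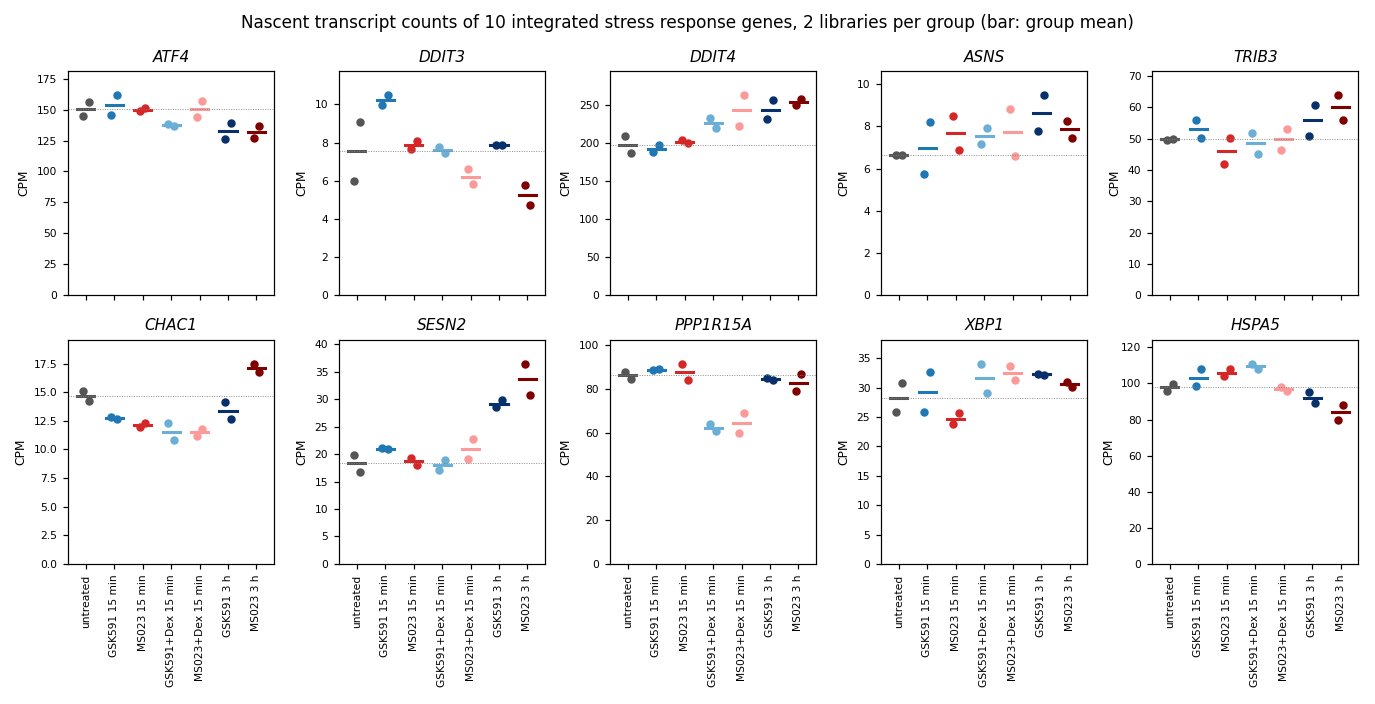
Level of each of the 10 genes in the 14 libraries, in CPM on a linear axis that starts at 0 and has its own scale in each panel. Each point is 1 library and each short bar is the mean of the 2 libraries of a group, with the untreated mean drawn on as a dotted line. SESN2 is highest in the 4 libraries taken at 3 h, and PPP1R15A is lowest in the 4 libraries with Dex.

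After 15 min of either inhibitor none of the 10 genes was called against untreated cells. A gene was called where edgeR's quasi-likelihood test gave a Benjamini-Hochberg adjusted p under 0.05 over all genes tested in that comparison. GSK591 gave 0 of 10 against 0.306% of all genes tested, with 1 gene at an unadjusted p under 0.05, and MS023 gave 0 of 10 against 0.196%, with 0 genes at an unadjusted p under 0.05. Here and below, counts at an unadjusted p are given without the share of all genes tested under that rule, so they cannot show an excess. DESeq2 also gave 0 in both comparisons. The lowest unadjusted p of the 20 values was that of DDIT3, the pro-apoptotic factor CHOP, under GSK591. DDIT3 stood at 6.00 and 9.06 CPM in untreated cells and at 9.98 and 10.5 CPM after GSK591, a log2 difference of 0.44 ± 0.20 (SE, edgeR adjusted p = 0.65). Its 2 untreated libraries lay further apart than the groups did.

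SESN2, which encodes sestrin 2, an antioxidant protein and an inhibitor of the growth kinase mTORC1, changed most among the 10 genes at 3 h. It stood at 19.9 and 16.7 CPM in untreated libraries, 28.5 and 29.9 CPM after 3 h of GSK591, and 36.5 and 30.7 CPM after 3 h of MS023. Libraries of 15 min lay at 21.1 and 20.9 CPM for GSK591, 19.3 and 18.1 CPM for MS023, 17.2 and 18.9 CPM for GSK591 with Dex, and 19.1 and 22.7 CPM for MS023 with Dex. The 4 libraries of 3 h were thus above the other 10. Against untreated cells SESN2 rose by 0.67 ± 0.13 on the log2 scale with GSK591 (95% interval 0.41 to 0.93, edgeR adjusted p = 0.00034). With MS023 it rose by 0.88 ± 0.13 (0.62 to 1.14, edgeR adjusted p = 5.2e-06). Both comparisons use the same untreated libraries. Against 15 min of the same inhibitor, which uses other reference libraries, SESN2 rose by 0.47 ± 0.13 with GSK591 (edgeR adjusted p = 0.019) and by 0.85 ± 0.13 with MS023 (edgeR adjusted p = 9.8e-06). The GSK591 rise over 15 min was lost when any 1 of its 4 libraries was left out (0.44 to 0.51, adjusted p 0.077 to 0.16) and with DESeq2 (0.49, adjusted p = 0.065), and the other 3 SESN2 calls held in every setting tried.

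Of the 10 genes, SESN2 was the 1 called at 3 h of GSK591 against untreated cells, beside 11% of all genes tested, and SESN2 and DDIT4 were the 2 called at 3 h of MS023, beside 7.63%. Counts of 1 and 2 of 10 genes are near those shares. DDIT4, another inhibitor of mTORC1 signalling (REDD1), stood at 210 and 187 CPM in untreated cells, 232 and 257 CPM after 3 h of GSK591, and 250 and 258 CPM after 3 h of MS023. The 4 libraries of 3 h lay above the untreated pair. Of all genes tested, 27.1% lay above it without overlap at 3 h of GSK591 and 24.7% at 3 h of MS023. The rise of DDIT4 with MS023 was 0.35 ± 0.10 on the log2 scale (edgeR adjusted p = 0.023). The value with GSK591, 0.30 ± 0.10, missed the threshold (edgeR adjusted p = 0.051). Libraries of 15 min held 188 and 198 CPM with GSK591 and 204 and 200 CPM with MS023, and against them DDIT4 rose by 0.34 ± 0.10 (edgeR adjusted p = 0.037) and by 0.33 ± 0.10 (edgeR adjusted p = 0.028). Each of the 2 rises over 15 min was lost when any 1 of its 4 libraries was left out (adjusted p 0.062 to 0.33 for GSK591 and 0.086 to 0.14 for MS023). The rise over untreated cells with MS023 was lost without untreated replicate 2 (0.28, adjusted p = 0.31) and without either MS023 3 h library (0.37 and 0.34, adjusted p 0.09 and 0.11). Library size alone as scaling ended all 3 DDIT4 calls, with 0.37 (adjusted p = 0.13) for MS023 against untreated cells, 0.40 (adjusted p = 0.098) for GSK591 against 15 min and 0.18 (adjusted p = 0.45) for MS023 against 15 min. Non-mitochondrial library size alone ended the first (0.31, adjusted p = 0.07) and the GSK591 call (0.34, adjusted p = 0.051).

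Between 15 min and 3 h of MS023, 5 of the 10 genes were called, 4 higher and 1 lower, beside 12% of all genes tested, 7.65% higher and 4.39% lower. The same comparison for GSK591 called 2 of 10, SESN2 and DDIT4, beside 6.4%. The MS023 libraries of 15 min, the reference of the first comparison, form the group with the lowest mean mitochondrial share. With library size alone as the scaling, 2 of the 5 were called, beside 9.91% of all genes tested. The median of all genes then shifted by -0.16 on the log2 scale. With non-mitochondrial library size alone, an alternative added after the data were seen, 5 genes were called again, beside 13% of all genes tested. XBP1 was among them (0.42, adjusted p = 0.028) and HSPA5 was not (-0.22, adjusted p = 0.15).

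TRIB3, a pseudokinase that ATF4 induces and that dampens ATF4 in return, stood at 41.9 and 50.1 CPM after 15 min and at 64.0 and 55.9 CPM after 3 h of MS023. The libraries did not overlap, which held for 52% of all genes tested in this comparison. The rise of TRIB3 was 0.40 ± 0.11 on the log2 scale (edgeR adjusted p = 0.017). Without MS023 15 min replicate 1 the TRIB3 value was 0.26 (adjusted p = 0.34), without MS023 3 h replicate 1 it was 0.29 (adjusted p = 0.25), and with library size alone 0.24 (adjusted p = 0.35). DESeq2 gave 0.40 (adjusted p = 0.069), so that call was lost there too. Untreated cells held TRIB3 at 49.7 and 49.9 CPM, and 3 h of MS023 against them gave 0.27 ± 0.11 (edgeR adjusted p = 0.14). TRIB3 at 3 h of GSK591 was at 50.7 and 60.9 CPM (0.16 ± 0.11 against untreated cells, edgeR adjusted p = 0.40).

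CHAC1, an enzyme that degrades glutathione, held 12.0 and 12.3 CPM after 15 min and 17.5 and 16.8 CPM after 3 h of MS023. Those 3 h libraries were the highest of the 14, and the rise over 15 min was 0.51 ± 0.15 on the log2 scale (edgeR adjusted p = 0.023). It was lost when any 1 of its 4 libraries was left out (0.48 to 0.55, adjusted p 0.054 to 0.16), with DESeq2 (0.52, adjusted p = 0.12), with library size alone (0.36, adjusted p = 0.2) and without a filter on low counts (0.50, adjusted p = 0.062). Untreated cells held CHAC1 at 15.1 and 14.2 CPM, between those groups, and neither MS023 at 15 min (-0.28 ± 0.15, edgeR adjusted p = 0.68) nor at 3 h (0.23 ± 0.15, edgeR adjusted p = 0.40) was called against them. The MS023 15 min libraries, the reference of this call, lay below the untreated pair.

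HSPA5, the ER chaperone BiP, was the 1 gene of the 10 called lower in this comparison. It held 104 and 108 CPM after 15 min and 79.6 and 88.2 CPM after 3 h of MS023, without overlap, as did 52% of all genes tested. The log2 change was -0.34 ± 0.10 (edgeR adjusted p = 0.015). Without MS023 15 min replicate 1, without replicate 2 and without MS023 3 h replicate 1 the adjusted p was 0.066, 0.098 and 0.2. Against the 95.8 and 99.9 CPM of untreated cells the 3 h value was -0.22 ± 0.09 (edgeR adjusted p = 0.16). After 3 h of GSK591 HSPA5 held 95.1 and 88.9 CPM. XBP1, the transcription factor of the ER stress response that shares the ER stress element with HSPA5, held 23.8 and 25.7 CPM after 15 min and 31.0 and 30.1 CPM after 3 h of MS023 (0.31 ± 0.13, edgeR adjusted p = 0.12), so the value of XBP1 was on the other side of 0 from that of HSPA5.

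ATF4 was not called in any of the 13 comparisons (smallest edgeR adjusted p 0.19). It held 145 and 156 CPM in untreated cells, 146 and 162 CPM after 15 min of GSK591, 149 and 151 CPM after 15 min of MS023, 126 and 139 CPM after 3 h of GSK591, and 127 and 137 CPM after 3 h of MS023. With Dex it held 138 and 137 CPM beside GSK591 and 144 and 157 CPM beside MS023. The 4 libraries of 3 h were below the untreated pair. Of all genes tested, 27.3% lay below it without overlap at 3 h of GSK591 and 25.8% at 3 h of MS023. The log2 differences of ATF4 from untreated cells at 3 h were -0.18 ± 0.10 for GSK591 (95% interval -0.38 to 0.01, edgeR adjusted p = 0.24) and -0.19 ± 0.10 for MS023 (-0.38 to 0.01, edgeR adjusted p = 0.27). These intervals do not reach a rise of more than 0.01 on the log2 scale before adjustment for the number of genes. The ratio of the highest to the lowest group mean was 1.16 for ATF4, the smallest of the 10 genes, against 1.95 for DDIT3 and 1.86 for SESN2.

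DDIT3 and ASNS were not called in any comparison either, with smallest edgeR adjusted p-values of 0.098 and 0.28. DDIT3 held 7.65 and 8.08 CPM after 15 min and 5.76 and 4.70 CPM after 3 h of MS023 (-0.57 ± 0.23, edgeR adjusted p = 0.098). After 3 h of GSK591 it held 7.89 and 7.88 CPM, inside the range of the untreated pair. ASNS, asparagine synthetase, ranged from 5.75 to 9.50 CPM over the 14 libraries, on 46 to 82 counts, and DDIT3 had 34 to 88 counts. The 95% intervals of ASNS at 3 h against untreated cells ran from -0.05 to 0.80 for GSK591 and from -0.19 to 0.68 for MS023, which include 0 and, for GSK591, a rise of up to 0.80 at this depth.

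Dex was examined by setting each inhibitor with Dex against the same inhibitor alone, all at 15 min. PPP1R15A (GADD34), the regulatory subunit that directs a phosphatase to eIF2, was lower with Dex beside either inhibitor. It held 88.6 and 88.9 CPM with GSK591 alone and 64.0 and 60.6 CPM with GSK591 and Dex. It held 91.5 and 84.2 CPM with MS023 alone and 60.0 and 68.9 CPM with MS023 and Dex. The 4 libraries with Dex were below the other 10, of which the lowest was 78.9 CPM, after 3 h of MS023. PPP1R15A fell by 0.51 ± 0.10 on the log2 scale beside GSK591 (95% interval -0.71 to -0.31, edgeR adjusted p = 0.0013) and by 0.45 ± 0.10 beside MS023 (-0.65 to -0.25, edgeR adjusted p = 0.0015). The difference between the Dex effects was -0.06 ± 0.14 (-0.34 to 0.22, edgeR adjusted p = 0.94). Against untreated cells, at 87.7 and 84.6 CPM, the values were -0.47 ± 0.10 for GSK591 with Dex (edgeR adjusted p = 0.0022) and -0.42 ± 0.10 for MS023 with Dex (edgeR adjusted p = 0.0037). The fall beside GSK591 held in every setting tried. The fall beside MS023 was lost without MS023 15 min replicate 1 (-0.38, adjusted p = 0.083) and without MS023 with Dex replicate 1 (-0.35, adjusted p = 0.086). Against untreated cells the GSK591 value was lost without untreated replicate 1 (-0.45, adjusted p = 0.053), and the MS023 value without untreated replicate 1 (-0.39, adjusted p = 0.077), without MS023 with Dex replicate 1 (-0.33, adjusted p = 0.13) and with library size alone (-0.43, adjusted p = 0.057).

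PPP1R15A was the 1 gene of the 10 called for Dex beside GSK591, where 3.7% of all genes tested were called, and PPP1R15A and XBP1 were the 2 called beside MS023, where the share was 8.97%. Each inhibitor with Dex against untreated cells called 1 of 10, again PPP1R15A, beside 5.85% for GSK591 and 7.64% for MS023. XBP1 held 23.8 and 25.7 CPM with MS023 alone and 33.7 and 31.3 CPM with MS023 and Dex. The libraries did not overlap, which held for 49.4% of all genes tested. XBP1 showed a rise of 0.40 ± 0.13 on the log2 scale (edgeR adjusted p = 0.041). It was lost when any 1 of the 4 libraries was left out (0.34 to 0.46, adjusted p 0.075 to 0.35), with DESeq2 (0.40, adjusted p = 0.16), with library size alone (0.22, adjusted p = 0.43) and without a filter on low counts (0.37, adjusted p = 0.11). Beside GSK591, XBP1 held 25.8 and 32.6 CPM alone and 34.1 and 29.1 CPM with Dex (0.12 ± 0.13, edgeR adjusted p = 0.71). DDIT4 values with Dex were 233 and 220 CPM beside GSK591 and 223 and 264 CPM beside MS023, and missed the threshold against the inhibitor alone (0.23 ± 0.10, edgeR adjusted p = 0.24, and 0.27 ± 0.10, edgeR adjusted p = 0.096). Tested directly, the Dex effects differed between the inhibitors for 0 of the 10 genes (1.15% of all genes tested, 0 of 10 at an unadjusted p under 0.05, and 0 with DESeq2).

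**Figure D2:**
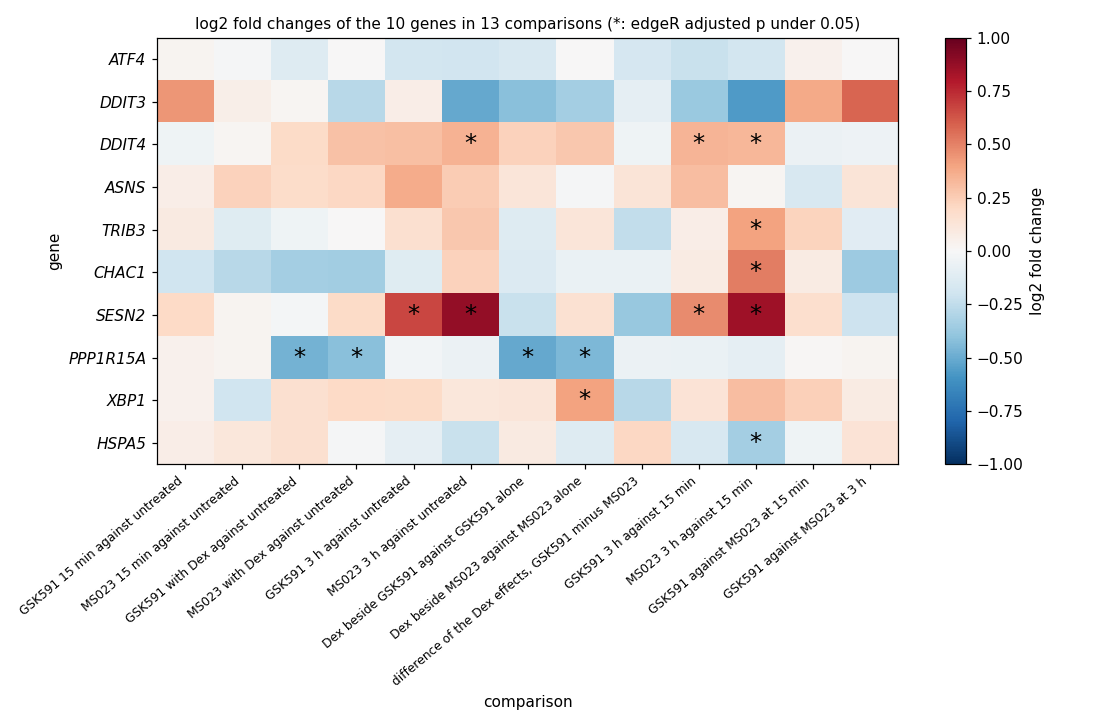
Log2 fold change of each of the 10 genes (vertical) in each of the 13 comparisons (horizontal), as colour (red higher, blue lower in the first group named), with an asterisk where edgeR's adjusted p was under 0.05. The 15 asterisks fall on 7 genes, with 4 each on SESN2 and PPP1R15A, 3 on DDIT4 and 1 each on TRIB3, CHAC1, XBP1 and HSPA5.

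**Figure D3:**
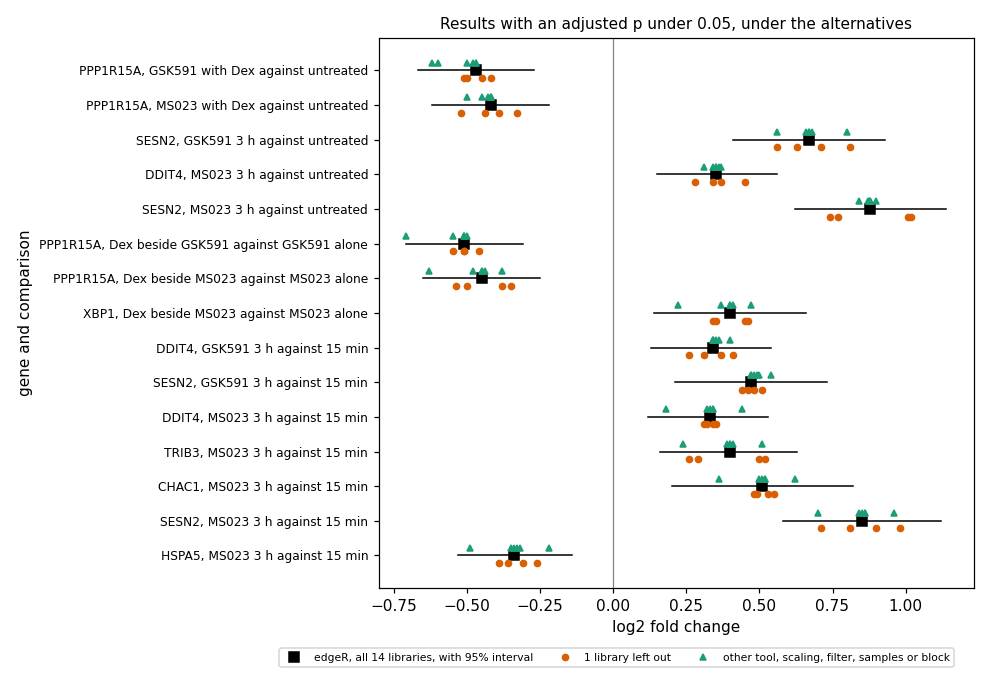
Log2 fold change (horizontal) of the 15 results with an edgeR adjusted p under 0.05 (vertical), with a square and line for the estimate and 95% interval from all 14 libraries, circles for fits with 1 library left out and triangles for another tool, scaling, filter, choice of samples or replicate block. Every point lies on the same side of 0 as its square, and the largest values are those of SESN2 at 3 h of MS023, 0.88 against untreated cells and 0.85 against 15 min.

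The inhibitors were also set against each other. At 15 min 0 of the 10 genes were called, beside 1.1% of all genes tested, with 0 of 10 at an unadjusted p under 0.05 and 0 with DESeq2. At 3 h 0 of the 10 were called, beside 0% of all genes tested, with 2 of 10 at an unadjusted p under 0.05 and 0 with DESeq2. Those 2 were DDIT3 (7.89 and 7.88 CPM with GSK591, 5.76 and 4.70 CPM with MS023, 0.58 ± 0.22, 95% interval 0.13 to 1.03, edgeR adjusted p = 0.68) and CHAC1 (14.1 and 12.7 CPM against 17.5 and 16.8 CPM, -0.36 ± 0.15, -0.65 to -0.06, edgeR adjusted p = 0.76). For SESN2 the difference of GSK591 minus MS023 was -0.21 ± 0.12 at 3 h (-0.46 to 0.04, edgeR adjusted p = 0.85) and for DDIT4 -0.05 ± 0.10 (-0.26 to 0.15, edgeR adjusted p = 0.97). A p above the threshold does not show that the inhibitors act alike, and for SESN2 the interval allows MS023 to be higher by up to 0.46.

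Around the 10 genes, 84 others of the pathway were read in 5 lists, and all were tested. The lists hold 13 genes of the eIF2 kinases and eIF2 machinery, 14 partners of ATF4 and stress feedback genes, 19 genes of amino acid synthesis and transport, 12 aminoacyl-tRNA synthetases and 26 ER chaperones, ER degradation factors and sensors. At 15 min of either inhibitor 0 of 84 were called by edgeR's test, with 3 for GSK591 and 8 for MS023 at an unadjusted p under 0.05, and 0 with DESeq2. At 3 h against untreated cells 12 of 84 (14.3%) were called with GSK591, 8 higher and 4 lower, beside 11% of all genes tested, and 7 of 84 (8.33%) with MS023, 6 higher and 1 lower, beside 7.63%. The median log2 difference over the 84 was 0.06 and 0.02. Dex beside GSK591 called 7 of 84 (8.33%), 4 higher and 3 lower, beside 3.7%, and beside MS023 10 of 84 (11.9%), 6 higher and 4 lower, beside 8.97%. DESeq2 called 5 of the 84 at 3 h of either inhibitor, beside 8.06% of the genes it tested for GSK591 and 5.6% for MS023. In most fits with 1 library left out, fewer of the 84 were called in these 3 h comparisons and for Dex beside GSK591. The share of all genes tested fell in most of those fits too, so the lower counts do not set the 84 genes apart.

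At the head of the pathway EIF2AK3, the ER-bound kinase PERK, was the 1 gene of the 13 in its list called higher at 3 h of either inhibitor, beside 11% of all genes tested for GSK591 and 7.63% for MS023. It held 11.4 and 11.1 CPM in untreated cells, 21.5 and 21.2 CPM after 3 h of GSK591 and 19.8 and 19.3 CPM after 3 h of MS023. The rise was 0.92 ± 0.15 (edgeR adjusted p = 3.2e-05) and 0.80 ± 0.16 (edgeR adjusted p = 0.00044) on the log2 scale. With MS023 alone for 15 min EIF2AK3 held 10.1 and 9.88 CPM and with Dex beside it 18.5 and 18.0 CPM, a rise of 0.86 ± 0.16 (edgeR adjusted p = 0.0003). These 3 EIF2AK3 calls held in every setting tried. Beside GSK591 it held 15.0 and 11.9 CPM alone and 17.9 and 12.5 CPM with Dex, which overlapped and was not called (0.18 ± 0.17, edgeR adjusted p = 0.64). EIF2S2, a subunit of eIF2, fell with GSK591 at 3 h by 0.44 ± 0.14 (edgeR adjusted p = 0.028), a call lost when any 1 of its 4 libraries was left out (-0.50 to -0.36, adjusted p 0.079 to 0.24), with DESeq2 (-0.43, adjusted p = 0.14) and with library size alone (-0.31, adjusted p = 0.27). The other 3 eIF2 kinases, EIF2AK1, EIF2AK2 and EIF2AK4, were not called at 3 h of either inhibitor.

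Of the 26 genes of the ER list, 3 were called higher and 1 lower at 3 h of GSK591, beside 11% of all genes tested. At 3 h of MS023 3 were called higher and 0 lower, beside 7.63%. The median log2 differences from untreated cells were 0.01 and -0.1, with 15 and 6 of the 26 genes above 0. ERN1, which encodes the ER stress sensor IRE1 that splices XBP1 messenger RNA, held 34.4 and 37.8 CPM in untreated cells and 55.7 and 55.9 CPM after 3 h of GSK591. The rise was 0.63 ± 0.11 (edgeR adjusted p = 5.3e-05). After 3 h of MS023 ERN1 held 52.4 and 45.7 CPM (0.45 ± 0.11, edgeR adjusted p = 0.0057), a call lost without untreated replicate 1 (0.39, adjusted p = 0.12) and without MS023 3 h replicate 1 (0.34, adjusted p = 0.19), and with library size alone (0.47, adjusted p = 0.056). With Dex it held 64.9 and 63.0 CPM beside GSK591 and 68.1 and 65.4 CPM beside MS023, above 47.1 and 41.1 CPM and 35.4 and 41.6 CPM with the inhibitor alone. The rise with Dex was 0.54 ± 0.11 (edgeR adjusted p = 0.0016), lost without GSK591 15 min replicate 2 (0.44, adjusted p = 0.088) and with library size alone (0.34, adjusted p = 0.16), and 0.80 ± 0.11 (edgeR adjusted p = 8.4e-07).

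ERO1A, the oxidase that forms disulphide bonds in the ER, held 15.4 and 19.0 CPM in untreated cells, 27.9 and 27.8 CPM after 3 h of GSK591 and 30.8 and 24.0 CPM after 3 h of MS023. It rose by 0.69 ± 0.15 (edgeR adjusted p = 0.0013) and 0.68 ± 0.15 (edgeR adjusted p = 0.0022) on the log2 scale. Those calls were lost without untreated replicate 1 (0.56, adjusted p = 0.072, and 0.55, adjusted p = 0.1) and, for MS023, without its 3 h replicate 1 (0.48, adjusted p = 0.17). With Dex beside MS023, ERO1A rose from 11.7 and 17.7 CPM to 30.1 and 37.7 CPM (1.24 ± 0.16, edgeR adjusted p = 2.5e-07). With GSK591, ERO1A held 21.2 and 18.1 CPM alone and 27.4 and 28.7 CPM with Dex, in the same direction but not called. SYVN1, also of the ER list, was lower with Dex. It held 64 and 64.2 CPM with GSK591 alone and 47.9 and 45.3 CPM with Dex (-0.46 ± 0.10, edgeR adjusted p = 0.0044). Beside MS023 it held 61.9 and 61.8 CPM alone and 49.4 and 50.4 CPM with Dex (-0.31 ± 0.10, edgeR adjusted p = 0.039). The call beside MS023 was lost in 4 of the 6 settings that left out no single library. It was also lost in all 4 fits with 1 library left out (-0.31 to -0.29). The SYVN1 call beside GSK591 was lost in 2 of its 4 such fits (-0.50 to -0.41). EIF2AK3, ERO1A and SYVN1 each share exon bases with other genes, so their counts carry the same uncertainty about strand as those of DDIT3, while ERN1 shares none.

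Of the 14 partners of ATF4 and stress feedback genes, 1 was called higher and 1 lower at 3 h of GSK591, beside 11% of all genes tested. At 3 h of MS023 2 were called higher and 0 lower, beside 7.63%. Among the partners of ATF4, CEBPB, a C/EBP factor that pairs with it, moved most. It held 26.9 and 23 CPM in untreated cells, 85.6 and 70.2 CPM after 3 h of GSK591 and 82.5 and 71.9 CPM after 3 h of MS023. The rise was 1.64 ± 0.14 (edgeR adjusted p = 2.2e-11) and 1.63 ± 0.14 (edgeR adjusted p = 4.3e-11) on the log2 scale. With Dex it held 86.7 and 71.5 CPM beside GSK591 and 87.3 and 115 CPM beside MS023, above 41.9 and 32.2 CPM and 21.0 and 27.1 CPM without it. The rise with Dex was 1.10 ± 0.14 (edgeR adjusted p = 7e-07) and 2.09 ± 0.14 (edgeR adjusted p = 3.6e-14). CEBPB shares 11.81% of its exon bases with CEBPB-AS1. SQSTM1, the autophagy receptor p62, held 301 and 299 CPM with GSK591 alone and 196 and 179 CPM with Dex, a fall of 0.68 ± 0.10 (edgeR adjusted p = 1.9e-05). STC2, called lower in the same list, held 43.3 and 47.8 CPM in untreated cells and 30.7 and 33.7 CPM after 3 h of GSK591 (-0.50 ± 0.11, edgeR adjusted p = 0.0023). The STC2 call was lost in 2 of its 4 fits with 1 library left out (-0.58 to -0.42) and in 1 of the 6 other settings. GDF15, a secreted stress signal, held 117 and 108 CPM in untreated cells and 156 and 148 CPM after 3 h of MS023 (0.44 ± 0.11, edgeR adjusted p = 0.0052). That call was lost without untreated replicate 2 (0.39), without MS023 3 h replicate 1 (0.40) and with library size alone (0.46, adjusted p = 0.051). With GSK591 and Dex, GDF15 held 91 and 80.5 CPM, lower than in untreated cells (-0.39 ± 0.11, edgeR adjusted p = 0.025). This call was lost with DESeq2 (-0.4, adjusted p = 0.054) and in 3 of the 4 fits with 1 library left out (-0.49 to -0.30).

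**Figure D4:**
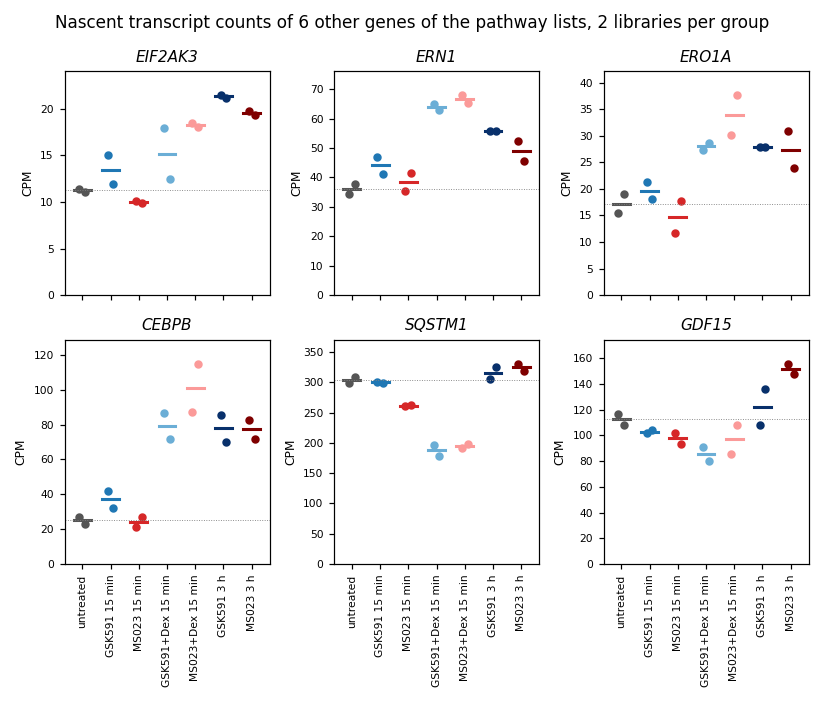
Levels in CPM of 6 genes of the pathway outside the 10, by group, on axes that start at 0, with 1 point per library, short bars for group means and a dotted line at the untreated mean. EIF2AK3, ERN1, ERO1A and CEBPB are higher than in untreated cells in both 3 h groups, and SQSTM1 is lowest in the 4 libraries with Dex.

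Genes of amino acid supply were read next. At 3 h of GSK591 2 of 19 were called higher and 1 lower, beside 11% of all genes tested in either direction, and at 3 h of MS023 0 were called higher and 1 lower, beside 7.63%. The higher calls were PSPH, the last enzyme of serine synthesis (0.36 ± 0.12, edgeR adjusted p = 0.05 when rounded, just under the threshold), and PYCR1, an enzyme of proline synthesis (0.32 ± 0.11, edgeR adjusted p = 0.044), which falls outside the naming rule and was named after its values were seen. PSPH was lost when any 1 of its 4 libraries was left out (adjusted p 0.17 to 0.24), and PYCR1 without untreated replicate 1 (0.31, adjusted p = 0.22), untreated replicate 2 (0.35, adjusted p = 0.17) or GSK591 3 h replicate 2 (0.15, adjusted p = 0.6). Both were also lost with DESeq2 (adjusted p 0.18 and 0.15), without a count filter (0.15 and 0.088) and with non-mitochondrial library size alone (0.2 and 0.2). The lower gene was MTHFD2, a mitochondrial enzyme of the folate cycle, at 20.2 and 23.5 CPM in untreated cells, 17.4 and 13.1 CPM after GSK591 and 13.4 and 16.2 CPM after MS023. It fell by 0.51 ± 0.15 (edgeR adjusted p = 0.017) and by 0.57 ± 0.15 (edgeR adjusted p = 0.011) on the log2 scale. Both MTHFD2 calls were lost without untreated replicate 2 (-0.39, adjusted p = 0.26, and -0.45, adjusted p = 0.23), and also without GSK591 3 h replicate 2 (-0.34, adjusted p = 0.29) and without MS023 3 h replicate 1 (-0.43, adjusted p = 0.24). DESeq2 ended both MTHFD2 calls (-0.51, adjusted p = 0.09, and -0.56, adjusted p = 0.072), and library size alone ended that with GSK591 (-0.39, adjusted p = 0.14). Of the 12 aminoacyl-tRNA synthetases 1 was called at 3 h of GSK591, SARS (0.64 ± 0.18, edgeR adjusted p = 0.014), beside 11% of all genes tested, and 0 at 3 h of MS023, beside 7.63%. The SARS call was lost without untreated replicate 2 (0.48, adjusted p = 0.25), without GSK591 3 h replicate 1 (0.59, adjusted p = 0.12) or replicate 2 (0.68, adjusted p = 0.057), with DESeq2 (0.64, adjusted p = 0.096) and with non-mitochondrial library size alone (0.53, adjusted p = 0.05 when rounded, just over the threshold). SLC38A2, an amino acid transporter, held 81.1 and 84.8 CPM with MS023 alone and 114 and 126 CPM with Dex (0.53 ± 0.10, edgeR adjusted p = 0.00032), a call lost with library size alone (0.35, adjusted p = 0.11). MTHFD2 shares 27.19% of its exon bases with SLC4A5, and SQSTM1 20.67% with MRNIP, both on the opposite strand.

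The 10 genes did not share 1 profile over the 14 libraries. Of the 45 pairs, 21 had a Pearson correlation of log2 CPM above 0 and 24 below, with a median of -0.06. The extremes were 0.73 for TRIB3 with SESN2 and -0.88 for SESN2 with HSPA5. ATF4 was above 0 with 3 of the 9 other genes. The 13486 genes whose mean was 5 CPM or more were searched, and the 5 with the profile most like that of ATF4 were SNRPE (0.89), TM2D1 (0.88), RPL5 (0.87), EIF4A1 (0.84) and SNHG1 (0.84). The most alike for SESN2 was CYHR1 (0.95), for PPP1R15A NOC2L (0.97), for HSPA5 ACACA (0.93), for TRIB3 AL731569.1 (0.93), for DDIT3 GOLGA8B (0.91), for DDIT4 TTC9 (0.90), for CHAC1 LINC00896 (0.89), for XBP1 CKAP4 (0.88) and for ASNS AC008972.2 (0.80). These values describe libraries that share groups and depth and carry no test.

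In the authors' deposited table for 3 h of GSK591, SESN2 had a log2 fold change of 0.81 (SE 0.23, adjusted p = 0.014) and DDIT4 0.39 (adjusted p = 0.051). In the authors' deposited table for 3 h of MS023, SESN2 had 1.02 (SE 0.23, adjusted p = 0.0013) and DDIT4 0.44 (SE 0.13, adjusted p = 0.03). In the authors' deposited tables of each inhibitor with Dex, PPP1R15A had -0.45 with GSK591 (SE 0.15, adjusted p = 0.12) and -0.39 with MS023 (adjusted p = 0.18), both above the threshold. The authors' deposited tables thus held 1 of the 10 genes under an adjusted p of 0.05 at 3 h of GSK591, 2 at 3 h of MS023 and 0 in the other 4. Over all 58780 genes the tables for 3 h held 535 under that threshold for GSK591 and 359 for MS023. In 3 of the 6 tables the adjusted p of 2 of the 10 genes is missing.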

How the data were processed

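PRO-seq was deposited as 1 table of whole-number counts per gene, made by the authors with featureCounts 2.0.1 (Subread) on hg38, per the submitters' processing notes. The aligner, the counting feature and the strand setting are not given in the sources used here. The authors also deposited 6 DESeq2 tables that hold, per the file headers, a mean signal, a log2 fold change with its standard error, a test score, a p-value and an adjusted p-value per gene. Every gene of the count table was matched to GENCODE 29. Counts were tested as deposited with edgeR 4.0.16 (R 4.3.3), with TMM scaling, edgeR's filter on low counts (minimum count 10) and its quasi-likelihood test. All 14 libraries entered 1 fit with 7 groups of 2, which leaves 7 residual degrees of freedom, with a biological coefficient of variation of 0.073, and 13 comparisons were drawn. Each p was adjusted by Benjamini-Hochberg over the 21910 genes tested. On counts simulated for GSK591 at 3 h against untreated cells, 200 of 21910 genes were shifted by a log2 fold of 1. The edgeR test found 67.9% of the 196 shifted genes that were tested, and called 14 unshifted ones. DESeq2 found 49.5% of 200 and called 1 unshifted gene. The largest difference among the 10 genes was 0.88, below the simulated shift, so these shares do not measure how often changes of their size are found. Counting error and spread at 34 to 88 counts (DDIT3) are far larger than at 897 to 1431 (ATF4).

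Alternatives were DESeq2 1.42.0, library size alone, no count filter, only the groups compared, the replicate number as a block, and each library left out. Named were all 10 genes, up to 2 called genes of largest change per list and comparison, and the genes of most similar profile (5 for ATF4, 1 for each other, above 5 CPM, prior count 2). Not every gene that this rule allows is printed. The genes and lists were chosen with earlier results of these data known.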

Additional observations from a re-analysis of the deposited data

Results flagged for a closer look

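CEBPB gave different Dex effects beside the 2 inhibitors. The effect beside GSK591 was 1.10 and that beside MS023 2.09 on the log2 scale, and the difference of GSK591 minus MS023 was -1.0 ± 0.20 (edgeR adjusted p = 0.005). It was lost with DESeq2 (-0.98, adjusted p = 0.13), without GSK591 15 min replicate 1 (-0.79, adjusted p = 0.15), without MS023 15 min replicate 1 (-0.81, adjusted p = 0.21) and without MS023 with Dex replicate 2 (-0.79, adjusted p = 0.097).

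CEBPB also differed between the inhibitors at 15 min, at 41.9 and 32.2 CPM with GSK591 and 21.0 and 27.1 CPM with MS023. The log2 difference was 0.64 ± 0.15 (edgeR adjusted p = 0.022). It was lost with DESeq2 (0.63, adjusted p = 0.31), with library size alone (0.53, adjusted p = 0.32), without GSK591 15 min replicate 1 (0.43, adjusted p = 0.58) and without MS023 15 min replicate 1 (0.45, adjusted p = 0.7). The same 15 min libraries enter both results.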

How the results depend on the processing

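No value of the 10 genes that was called reversed under any of the settings, and 4 of the 15 calls held in all of them: SESN2 at 3 h of GSK591 and of MS023 against untreated cells, SESN2 at 3 h against 15 min of MS023, and PPP1R15A for Dex beside GSK591. The number of the 10 genes called changed by more than 1.5 times as follows. Brackets hold the share of all genes tested that was called in the same setting. For 3 h of GSK591 against untreated cells, 1 (11%) became 2 with DESeq2 (8.06%), library size alone (9.85%) and only the groups compared (16.6%). For 3 h of MS023 against untreated cells, 2 (7.63%) became 1 with library size alone (4.57%) and with non-mitochondrial library size alone (7.16%). The latter was chosen after seeing the data. For 3 h against 15 min of GSK591, 2 (6.4%) became 1 with DESeq2 (7.06%), library size alone (3.25%) and non-mitochondrial library size alone (5.69%). For 3 h against 15 min of MS023, 5 (12%) became 3 with DESeq2 (8.29%) and 2 with library size alone (9.91%). For Dex beside MS023, 2 (8.97%) became 1 with DESeq2 (6.23%), with library size alone (8.46%) and without a count filter (4.07%). For GSK591 with Dex against untreated cells, 1 (5.85%) became 2 with non-mitochondrial library size alone (9.32%). For MS023 with Dex against untreated cells, 1 (7.64%) became 0 with library size alone (4.46%) and 2 with only the groups compared (12.8%). The cause was not tested. Leaving out 1 library assumes that the lone sample varies like the other groups. It gave as many or fewer of the 10 genes for Dex beside MS023 and for 3 h against 15 min of either inhibitor. The same held against untreated cells for 3 h of MS023 and for either inhibitor with Dex. The share of all genes tested fell in each of those fits too. For the 84 pathway genes, an alternative also added after the data were seen, DESeq2 called 5 (8.06%) at 3 h of GSK591 where edgeR called 12 (11%). Library size alone called 4 (4.57%) at 3 h of MS023 where the main scaling gave 7 (7.63%).

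Over 21 pairs of groups the correlation of same-numbered deviations was -0.1 to 0.22, median 0.02, with 7 pairs above 0.1. A weak pairing of some groups by replicate number therefore remains possible. With the replicate number as a block, 2536 of all genes tested (11.6%) were called at 3 h of GSK591 against untreated cells, where the main fit called 2418 (11%). The fit with the replicate number as a block called 2 of the 10 genes in place of 1 at 3 h of GSK591, with DDIT4 at 0.29 (edgeR adjusted p = 0.043).

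Depth limits DDIT3 and ASNS most, at 34 to 88 and 46 to 82 counts.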
